A study of Drosophila melanogaster with 12 samples.

Results

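Odorant-binding proteins, which are named Obp with the map position of their gene, are small secreted proteins with conserved cysteines. The genes described here were those whose current symbol begins with Obp and a number and which had a probe set that names no other gene. They were 47 of the 11982 genes that single-symbol probe sets named on the array. Obp19a, Obp19c and Obp59a had 2 such probe sets each, and the one with the higher mean over the 12 arrays stood for the gene.

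The flies were whole adult males of w1118, a laboratory strain with white eyes. They were moved at 1 to 2 days of age onto food with 0.25% or 4% yeast extract (YE) and kept there for 6 days. About 100 males were ground for each extract, which was spread over a sucrose gradient by the number of ribosomes on each mRNA. RNA was taken from the high translation fraction, with 5 or more ribosomes per mRNA, and from the low translation fraction, with 1 to 4. The 4 groups were therefore the high and the low fraction of males on 0.25% YE, which is the restricted diet, and the high and the low fraction of males on 4% YE. Each had 3 biological replicates on Affymetrix Drosophila 2.0 arrays, hybridised from 100 ng of RNA, so that 12 arrays came from 6 gradients. All 4 groups share strain, sex and age, and every extract pools many animals.

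In the antenna, odorant-binding proteins fill the lymph around the olfactory neurons, where they carry hydrophobic odorants and pheromones or take them up. Other members of the family are made in the taste bristles and the mouthparts. A further set is made in the male accessory gland, ejaculatory duct or ejaculatory bulb, and is passed to the female in the seminal fluid. The family also has members in the fat body and in other tissues. Since the RNA came from whole flies, fewer cells of a type and less RNA per cell cannot be told apart in any diet difference below.

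To set the fractions against each other, the log2 intensity of the low fraction was subtracted from that of the high one. The result is the translational index, and a negative index means a lower value in the high fraction. Intensities were quantile-normalized over all 12 arrays, which fixes the same distribution on each array. An index therefore ranks an mRNA against the other mRNAs and gives no absolute share of ribosomes. Values below are normalized intensities, with SD over the 3 arrays of a group, or log2 differences with the standard error (SE) of the linear model. A call is a two-sided limma p under 0.05 after Benjamini-Hochberg adjustment over the 11261 probe sets tested.

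Of the 47 genes, 26 lay above the 95th percentile of the control probe sets on all 12 arrays. These percentiles were 13.8 to 24.6 on the normalized scale, and 59.0% to 66.4% of all probe sets per array exceeded them. A further 13 genes exceeded them on some of the arrays but not on all. The other 8, Obp47a, Obp47b, Obp50e, Obp56c, Obp58c, Obp58d, Obp85a and Obp93a, exceeded them on 0 of 12 arrays, so they were not above control on any array of whole males. With the dimmest 40% of probe sets left out, 29 genes were tested. They were the 26 above control on every array together with Obp59a, Obp83cd and Obp83ef, and they had passed a filter on the mean over all arrays.

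The 18 genes not tested had means over the 12 arrays of -21.7 to 20.7, and their highest single value was 43.8, for Obp19c. Besides the 8 named above they were Obp19c, Obp46a, Obp50a, Obp50d, Obp56b, Obp57e, Obp58b, Obp73a, Obp83g and Obp99d. Without the filter, Obp57e, a taste organ gene that has been linked to host plant choice in Drosophila sechellia, had an index of -1.17 ± 0.36 on 4% YE (limma adjusted p = 0.049). Its values on that diet were close to the control probe sets. The high fraction exceeded control on 0 of 3 arrays and the low fraction on 2 of 3. The gene table lists 51 Obp symbols. Obp57d shared its probe sets with the cuticle protein gene Cpr57A, Obp50b and Obp50c shared theirs with each other, and Obp83a is not analysed here.

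Replicate 1 stood apart from replicates 2 and 3 in all 4 groups. In log2 intensity over probe sets, its low fraction on 0.25% YE correlated with the other arrays of the group at 0.859 and 0.895, and its high fraction on that diet at 0.899 and 0.923. On 4% YE the values were 0.939 and 0.943 for its high fraction and both 0.931 for its low fraction, whereas replicates 2 and 3 of the 4 groups correlated with each other at 0.979 to 0.988. The low fraction of replicate 1 on 0.25% YE, the lowest of these, held the lowest of the 12 values for 15 of the 29 tested Obp mRNAs (51.7%), against 19.5% of all probe sets tested. Summed intensities of other marker lists also differed there. The 16 olfactory companion genes described further on summed to 7881 on that array, against 11782 and 11843 on the other 2 arrays of the group. The 18 genes of the accessory gland and ejaculatory tract summed to 77596 there, against 70320 and 70391, and 9 testis genes to 19404, against 15500 and 14304. Among the olfactory companions, EbpIII averaged 6661 over the 3 arrays of this group and made up most of their mean sum. Ebp and EbpII, which share its name, were listed with the ejaculatory tract. The olfactory sum is therefore no measure of olfactory tissue. Counts of calls without the 4 arrays of replicate 1, and the genes whose calls then differed, are given further on.

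The label of whole males could be checked against marker genes. Of 10 testis genes with a probe set, 9 were above control on every array, while bam exceeded control on 1 of 12 and was not tested. All 18 genes of the accessory gland and ejaculatory tract with a probe set were above control on every array. Of 6 ovary genes with a probe set, 0 were bright enough to be tested. The yolk protein genes Yp1, Yp2 and Yp3, listed below with the fat body, exceeded control on 0, 4 and 9 of 12 arrays. The group means of Yp3 were 7.12 to 63.5, and it was tested.

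On 0.25% YE, 10 of the 29 tested Obp mRNAs were called lower in the high fraction, 0 were called higher, with Obp83cd higher at an unadjusted limma p under 0.05, and 19 were not called. Over all tested probe sets 11.8% were called lower and 9.66% higher on this diet. The median index was 0.04, against 0.02 for all, and 15 of the 29 indices were positive. High-fraction arrays lay wholly below low-fraction arrays in 10 of the 29, against 17.3% of all probe sets tested. The count of 10 calls went to 4 without replicate 2 of the high fraction on 0.25% YE and to 5 without its replicate 3. It went to 6 without replicate 2 of the low fraction on that diet. The shares of all probe sets called in these fits are not given here.

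On 4% YE, the 10 and 4 further Obp mRNAs were called lower in the high fraction, 14 of 29, while 0 were called higher, also at an unadjusted limma p under 0.05, and 15 were not called. Here 17.9% of all probe sets tested were called lower and 16.3% higher. The median index of the 29 was -0.71, against 0.02 for all, and 26 of the 29 indices were negative. In 20 of the 29, all 3 high-fraction arrays lay below all 3 low-fraction arrays, which held for 27.5% of all probe sets tested.

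**Figure D1:**
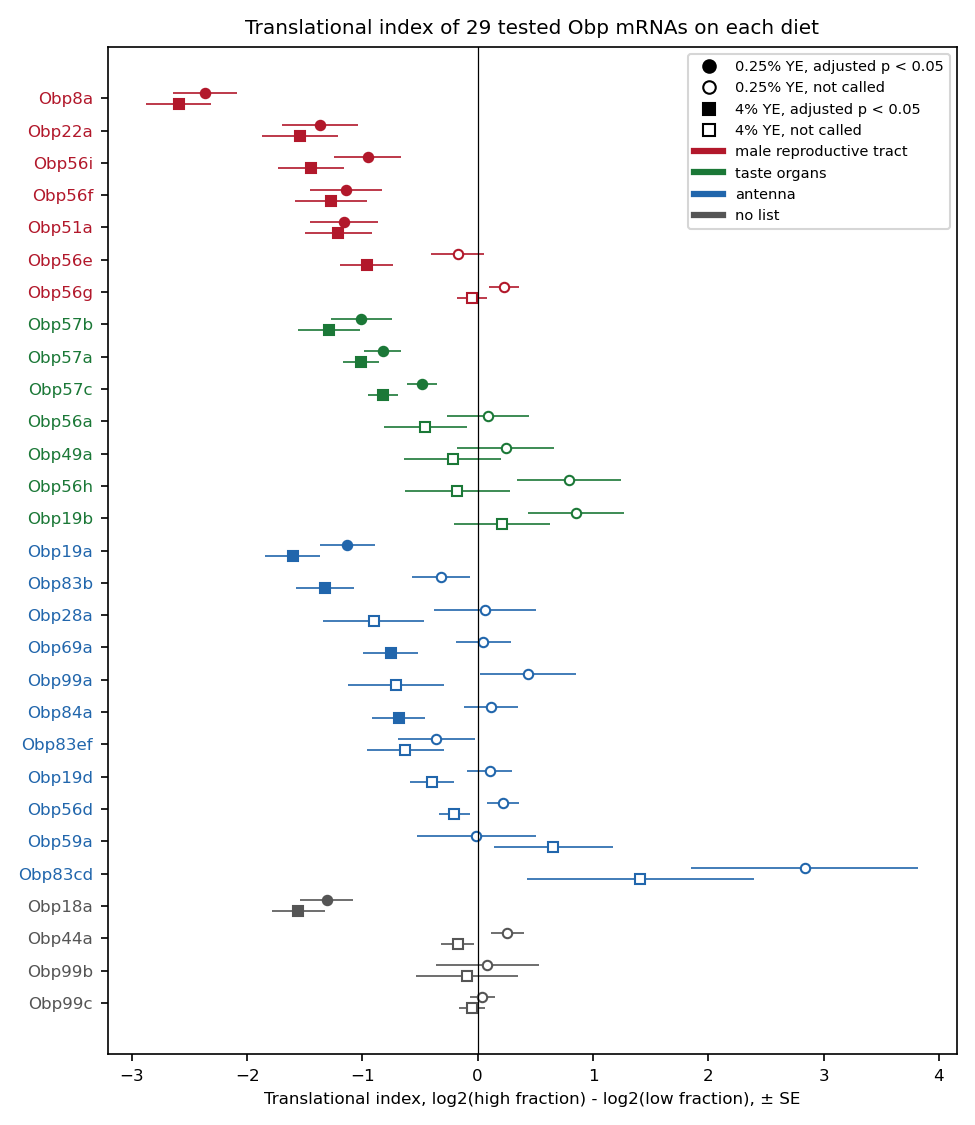
Translational index of the 29 tested Obp mRNAs, as log2 high fraction minus log2 low fraction with the SE of the linear model, on 0.25% YE (circles, upper of each pair) and on 4% YE (squares), 3 arrays per group; filled symbols have a limma adjusted p under 0.05 and colours mark the tissue group. Most members of the male reproductive tract and Obp57a to Obp57c sit left of 0 on both diets, whereas most antennal mRNAs sit near 0 on 0.25% YE and left of 0 on 4% YE.

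These counts depended on the scale. On the values as deposited, the median index over all probe sets was 0.41 on 0.25% YE and 0.32 on 4% YE, and the Obp medians were 0.26 and -0.42. With those values 1 Obp mRNA was called lower (Obp8a) and 1 higher (Obp83cd) on 0.25% YE. On 4% YE 4 were called lower (Obp8a, Obp18a, Obp19a and Obp51a). The shares of all probe sets called on that scale are not given here. Relative to the median of all probe sets, the Obp median on 4% YE was lower on both scales.

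The Obp genes of the male reproductive tract had low indices on both diets. Of their 7 members, all tested, 5 were called lower in the high fraction on 0.25% YE (Obp8a, Obp22a, Obp51a, Obp56f and Obp56i), and these 5 and Obp56e on 4% YE. Their median index was -1.14 on 0.25% YE and -1.27 on 4% YE. Obp56g, which is also transferred in the ejaculate, was not called on either diet (index 0.23 ± 0.13 on 0.25% YE and -0.05 ± 0.13 on 4% YE).

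Obp8a had the lowest index of the family. On 0.25% YE its intensity was 90.4, 45.4 and 50.2 in the high fraction and 409, 238 and 301 in the low fraction. On 4% YE it was 87.2, 71.7 and 61.8 in the high fraction and 452, 438 and 445 in the low fraction. The fractions lay far apart on both diets, without overlap. Its index was -2.36 ± 0.28 on 0.25% YE (5.14-fold lower in the high fraction, limma adjusted p = 0.0012) and -2.59 ± 0.28 on 4% YE (6.04-fold lower, adjusted p = 0.00019), and 0.231% of all probe sets tested had a lower index on each diet. Obp8a was the one Obp mRNA whose calls held under all 22 alternatives on both diets.

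Obp22a measured 834, 298 and 451 in the high fraction and 1801, 1015 and 1055 in the low fraction on 0.25% YE, where replicate 1 was the highest array of each fraction. The values on 4% YE were 496, 432 and 429.6 in the high fraction and 1434, 1239 and 1280.2 in the low fraction. Its index was -1.37 ± 0.33 on 0.25% YE (limma adjusted p = 0.015) and -1.54 ± 0.33 on 4% YE (adjusted p = 0.0043). The call on 0.25% YE was lost without replicate 2 (adjusted p = 0.073) or replicate 3 (adjusted p = 0.053) of the high fraction on that diet.

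Obp51a read 2694, 986 and 1318 in the high fraction and 4399.6, 3100.3 and 2850.3 in the low fraction on 0.25% YE, again with replicate 1 highest in both. On 4% YE the high-fraction arrays read 1894, 1703 and 1740.4 and the low-fraction arrays 4146, 3988 and 4187. Its index was -1.16 ± 0.29 on 0.25% YE (limma adjusted p = 0.018) and -1.21 ± 0.29 on 4% YE (adjusted p = 0.008). Leaving out replicate 2 or 3 of the high fraction or replicate 1 of the low fraction on 0.25% YE ended the call on that diet (adjusted p = 0.082, 0.069 and 0.054).

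In the seminal Obp56f and Obp56i the high fraction was the lower one too. Obp56f averaged 467 ± 245 on the high-fraction and 961 ± 210.4 on the low-fraction arrays on 0.25% YE (index -1.14 ± 0.31, limma adjusted p = 0.024), and 419.7 ± 40 on the high-fraction and 1015 ± 113 on the low-fraction arrays on 4% YE (index -1.27 ± 0.31, adjusted p = 0.0084). Obp56i averaged 166 ± 85.1 on the high-fraction and 299 ± 30.8 on the low-fraction arrays on 0.25% YE (index -0.95 ± 0.29, adjusted p = 0.035), and 125 ± 5.44 on the high-fraction and 344 ± 23.2 on the low-fraction arrays on 4% YE (index -1.45 ± 0.29, adjusted p = 0.0028). The Obp56f call on 0.25% YE was lost without replicate 2 or 3 of the high fraction or replicate 1 or 2 of the low fraction there (adjusted p = 0.051 to 0.11). The Obp56i call on 0.25% YE was lost in 9 of the 12 fits that left out 1 array, those being all fits except the ones without replicate 1 of either fraction on 4% YE or replicate 1 of the high fraction on 0.25% YE (adjusted p = 0.051 to 0.16). On 4% YE neither call was lost by leaving out 1 array.

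Obp56e, a neighbour of Obp56f in the genome, was with all 12 arrays the one seminal Obp called on 4% YE and not on 0.25% YE. It read 249, 198 and 225 in the high and 175, 290.2 and 314 in the low fraction on 0.25% YE, where the fractions overlapped through replicate 1 of the low fraction (index -0.17 ± 0.23, limma adjusted p = 0.62). On 4% YE it read 234, 241 and 239 in the high fraction and 448, 483 and 463 in the low fraction, a tight separation (index -0.96 ± 0.23, adjusted p = 0.0074). The difference of the 2 indices was not called (0.79 ± 0.33, limma adjusted p = 0.99). On replicates 2 and 3 alone it was called lower in the high fraction on 0.25% YE too (-0.52 ± 0.14, adjusted p = 0.0072), as it was with both replicate 1 arrays of that diet left out (-0.52 ± 0.17, adjusted p = 0.038).

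**Figure D2:**
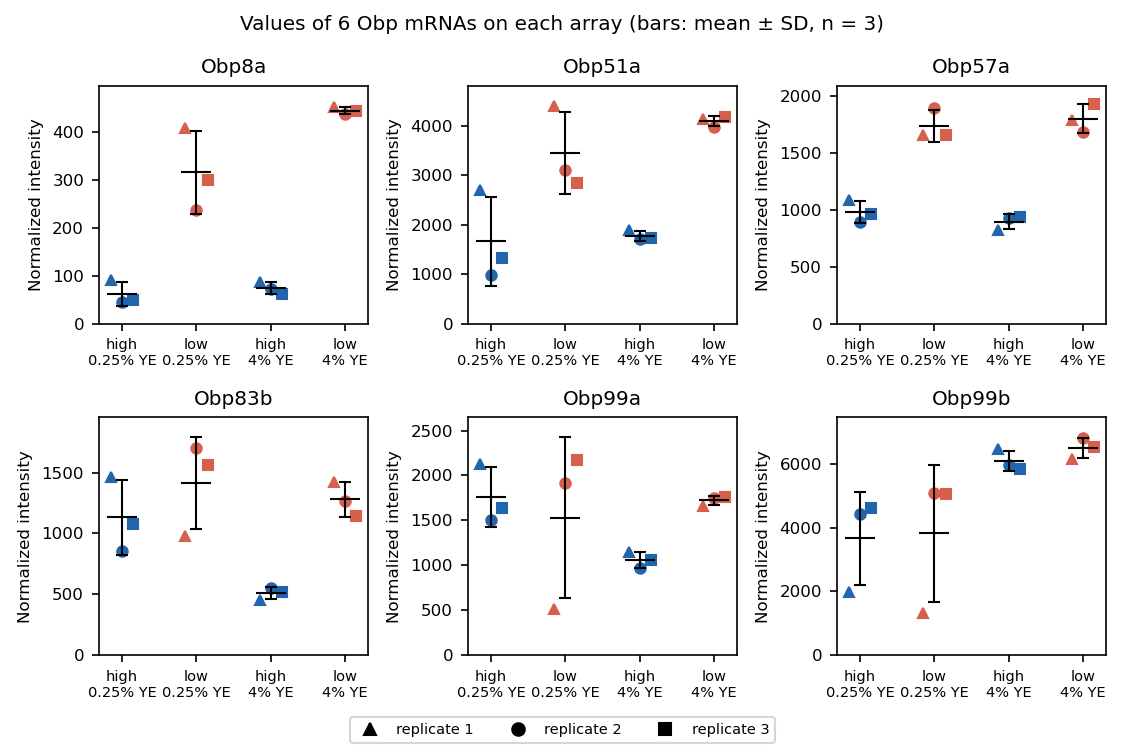
Normalized intensity of 6 Obp mRNAs on each of the 12 arrays, by fraction and diet, with the mean and SD of 3 arrays as bars; the symbol gives the replicate number. Obp8a, Obp51a and Obp57a are lower in the high fraction on both diets, Obp83b and Obp99a are low in replicate 1 of the low fraction on 0.25% YE, and all 6 arrays of Obp99b on 0.25% YE lie below all 6 on 4% YE.

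Other genes of the same organs were set beside them. Of 18 accessory gland and ejaculatory tract mRNAs, 9 were called lower and 1 higher in the high fraction on 0.25% YE, and 10 lower and 2 higher on 4% YE, with a median index of -0.56 on each diet. The mRNA of sex peptide (SP), which changes the mated female's behaviour, had an index of -1.55 ± 0.27 on 0.25% YE and -1.62 ± 0.27 on 4% YE (limma adjusted p = 0.0039 and 0.001), and that of its relative Dup99B had -1.17 ± 0.245 and -1.49 ± 0.245 (adjusted p = 0.008 and 0.00096). Acp36DE, a seminal protein needed for sperm storage, lay the other way at 1.11 ± 0.31 and 1.48 ± 0.31 (adjusted p = 0.027 and 0.0037). Of 9 testis mRNAs, 4 were called lower and 1 higher on 0.25% YE, and 5 lower and 1 higher on 4% YE.

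Among the 10 Obp genes assigned to taste organs, 7 were tested. Of these, Obp57a, Obp57b and Obp57c were called lower in the high fraction on both diets, and Obp19b, Obp49a, Obp56a and Obp56h on neither. Obp57a, Obp57b and Obp57c lie side by side in the genome with no other gene between them. The 7 had a median index of 0.09 on 0.25% YE and -0.45 on 4% YE.

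Obp57a measured 1085, 896 and 967 in the high fraction and 1658, 1901 and 1660.4 in the low fraction on 0.25% YE. For 4% YE the values were 819.6, 928 and 941 in the high fraction and 1788, 1689 and 1935 in the low fraction. The fractions did not overlap on either diet, while the ranges of each fraction overlapped between diets. Its index was -0.82 ± 0.16 on 0.25% YE (1.77-fold lower in the high fraction, limma adjusted p = 0.0054) and -1.01 ± 0.16 on 4% YE (2.01-fold lower, adjusted p = 0.00072).

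Obp57b averaged 401 ± 79.3 on the high-fraction and 797 ± 28.8 on the low-fraction arrays on 0.25% YE (index -1.01 ± 0.27, limma adjusted p = 0.021), and 347 ± 114 on the high-fraction and 817 ± 99.7 on the low-fraction arrays on 4% YE (-1.29 ± 0.27, adjusted p = 0.0033). Obp57c averaged 1814 ± 213 on the high-fraction and 2529 ± 99.9 on the low-fraction arrays on 0.25% YE (-0.48 ± 0.13, adjusted p = 0.024), and 1614 ± 37.7 on the high-fraction and 2851 ± 50.2 on the low-fraction arrays on 4% YE (-0.82 ± 0.13, adjusted p = 0.00089). Both calls on 0.25% YE were lost without replicate 2 of the high or of the low fraction of that diet, and that of Obp57c also without replicate 3 of the high fraction (adjusted p = 0.06 to 0.1).

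The 4 taste organ mRNAs without a call had indices of 0.09 to 0.85 on 0.25% YE and of -0.45 to 0.21 on 4% YE. Obp49a, which acts in the detection of bitter compounds mixed with sugar, measured 774, 725 and 490.3 in the high and 249, 769 and 864 in the low fraction on 0.25% YE. On 4% YE it measured 632, 308 and 397 in the high and 468, 523 and 497 in the low fraction. Its fractions overlapped on both diets, and replicate 1 of the low fraction on 0.25% YE was the lowest of the 12 arrays. Obp19b, Obp56a and Obp56h were also lowest on that array.

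Of the 14 Obp genes assigned to the antenna, 12 had a probe set under their Obp symbol and 11 of these were tested. Obp83a had no probe set under its symbol, and Obp99d was too dim to be tested. Obp76a is another name of lush, which was measured under that symbol. Its values are given further on and are not among those of the 11. On 0.25% YE 1 of the 11, Obp19a, was called lower in the high fraction, and the median index of the 11 was 0.06. On 4% YE 4 were called lower, namely Obp19a, Obp69a, Obp83b and Obp84a, and the median was -0.69. The change of each index between diets was tested on its own and is given further on.

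Obp19a read 247, 123 and 155 in the high fraction and 378, 362 and 364 in the low fraction on 0.25% YE. Readings on 4% YE were 119, 100 and 114 in the high fraction and 356, 329 and 331 in the low fraction. No high-fraction array reached a low-fraction one. The index was -1.13 ± 0.24 on 0.25% YE (limma adjusted p = 0.008) and -1.60 ± 0.24 on 4% YE (adjusted p = 0.00058). Its second probe set gave -0.92 ± 0.26 on 0.25% YE (adjusted p = 0.029) and -1.57 ± 0.26 on 4% YE (adjusted p = 0.0011), the same calls. Its neighbours Obp19b and Obp19d, of the same cluster, were not called on either diet, and Obp19c was not tested.

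Obp83b, also known as OS-E, is secreted around pheromone-sensing neurons of the antenna together with the product of the adjacent gene Obp83a. It measured 1465, 855 and 1075 in the high fraction and 983, 1699.9 and 1559 in the low fraction on 0.25% YE, with overlap. On 4% YE it measured 456, 555 and 518 in the high fraction and 1427, 1268 and 1145 in the low fraction, without overlap. Its index was -0.32 ± 0.25 on 0.25% YE (limma adjusted p = 0.38) and -1.33 ± 0.25 on 4% YE (2.51-fold lower in the high fraction, adjusted p = 0.002). With replicates 2 and 3 alone it was called lower on 0.25% YE as well (-0.79 ± 0.14, adjusted p = 0.00047).

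Obp69a and Obp84a, antennal proteins first described as relatives of moth pheromone-binding proteins, had the calls on 4% YE nearest to the threshold. Their indices on 0.25% YE were 0.05 ± 0.24 and 0.12 ± 0.23. On 4% YE Obp69a read 447, 495 and 447 in the high and 775, 831 and 737 in the low fraction (index -0.75 ± 0.24, limma adjusted p = 0.029). Obp84a read 90.4, 107 and 92.1 in the high and 159.8, 145 and 162 in the low fraction on that diet (index -0.69 ± 0.23, adjusted p = 0.038). The fractions did not overlap in either. Both calls were lost when any 1 of the 6 arrays of 4% YE was left out (adjusted p = 0.061 to 0.088 for Obp69a and 0.063 to 0.11 for Obp84a).

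The other 7 antennal mRNAs had no call on either diet. Obp28a, an abundant protein of the antenna, read 319, 436 and 429.8 in the high and 145, 612 and 589.6 in the low fraction on 0.25% YE, and 220.2, 274 and 268 in the high and 422, 538 and 467 in the low fraction on 4% YE. Obp99a read 2132, 1506 and 1637 in the high and 511, 1914 and 2168 in the low fraction on 0.25% YE, and 1147, 964 and 1058 in the high and 1664, 1750.2 and 1755 in the low fraction on 4% YE. In both, the fractions overlapped on 0.25% YE, where replicate 1 of the low fraction was the lowest of the 12 arrays, and on 4% YE all high-fraction arrays were below the low-fraction arrays, but the index was not called (limma adjusted p = 0.13 and 0.21 on 4% YE). With the replicate block Obp28a was called lower on 4% YE (-0.90 ± 0.34, adjusted p = 0.049) and Obp99a was not (adjusted p = 0.18). Obp19d and Obp56d had indices of 0.10 ± 0.19 and 0.22 ± 0.14 on 0.25% YE and of -0.40 ± 0.19 and -0.20 ± 0.14 on 4% YE.

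Obp83cd was the Obp mRNA with the highest index on each diet, and its values were close to the control probe sets. It read 33.9, 70.7 and 89.4 in the high and -15.1, 17.4 and 32.8 in the low fraction on 0.25% YE, and 64.0, 73.5 and 79.7 in the high and 14.3, 38.5 and 33.4 in the low fraction on 4% YE. The low fraction exceeded control on 1 of 3 arrays on 0.25% YE and on 2 of 3 on 4% YE, and the negative value was set to 0 before the log. Its index was 2.84 ± 0.99 on 0.25% YE and 1.41 ± 0.99 on 4% YE (limma adjusted p = 0.059 and 0.29). A fit with the replicate number as a block called it higher in the high fraction on 0.25% YE (adjusted p = 0.012) and not on 4% YE (adjusted p = 0.13). With replicates 2 and 3 alone it was called on both diets, at 1.66 ± 0.27 on 0.25% YE and 1.06 ± 0.27 on 4% YE (adjusted p = 0.00027 and 0.0048). Obp83ef, its neighbour in the genome, and Obp59a had means of 37.9 and 28.1 over all arrays and were not called.

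Of the tested genes, 4 were assigned to none of the 3 organs. Obp18a read 677, 651 and 882 in the high fraction and 2231, 1649 and 1618 in the low fraction on 0.25% YE, and 339, 528 and 539.5 in the high fraction and 1392, 1253 and 1413 in the low fraction on 4% YE. It was lower in the high fraction on both diets, with an index of -1.31 ± 0.23 on 0.25% YE (limma adjusted p = 0.0039) and -1.55 ± 0.23 on 4% YE (adjusted p = 0.00056). Neither call was lost by leaving out 1 array. Obp44a, Obp99b and Obp99c belong with Obp8a and Obp99a to the Minus-C group, which lacks some of the conserved cysteines. Their indices were between 0.04 and 0.26 on 0.25% YE and between -0.17 and -0.05 on 4% YE, with no call.

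Obp44a, Obp56d, Obp56g, Obp99b and Obp99c each had a mean above 5000, on a scale that ended at 9277 on every array. Their indices on 4% YE were -0.20 to -0.05, and none of the 5 was called on that diet. Of the 89 probe sets with such a mean, 51.7% were called in that comparison, 34.8% of the 89 being lower in the high fraction.

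The index change, the index on 0.25% YE minus that on 4% YE, asks whether the restricted diet moved an mRNA between fractions. For 28 of the 29 tested Obp mRNAs the change was positive, the exception being Obp59a, against 48.0% of all probe sets tested. The median change was 0.43, against -0.02 for all. Over the 1298 probe sets with a mean of at least 1000 it was 0.11. However, 0 of the 29 were called by limma, with 4 at an unadjusted p under 0.05 (Obp56e, Obp69a, Obp83b and Obp84a), and 0.00888% of all probe sets tested (1 of 11261) were called. Obp83b had a change of 1.01 ± 0.35 and Obp69a of 0.80 ± 0.34, each with an adjusted p of 0.99. On replicates 2 and 3 alone these were 0.40 ± 0.20 and 0.41 ± 0.19 (adjusted p = 0.29 and 0.27).

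In many of these mRNAs the low fraction of replicate 1 on 0.25% YE was the lowest array. Obp99a had an index of 2.06 in replicate 1 on 0.25% YE and of -0.35 and -0.40 in replicates 2 and 3, against -0.54, -0.86 and -0.73 on 4% YE. Obp28a had 1.14, -0.49 and -0.46 on 0.25% YE, against -0.93, -0.97 and -0.80 on 4% YE. Obp69a had 0.80, -0.31 and -0.34 on 0.25% YE, against -0.79, -0.75 and -0.72 on 4% YE. In all 3, replicate 1 on 0.25% YE was the single gradient with a positive index. The median change was 0.80 in the antennal genes, 0.46 in the taste organ genes and 0.23 in those of the male reproductive tract. These medians were 0.40, 0.22 and 0.12 with replicates 2 and 3 alone. The difference between organs was not tested.

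With the arrays of replicates 2 and 3 alone, a set chosen after the values were seen, the change was positive for 24 of 29 with a median of 0.22, and 0 were called by limma. In that fit the median index was -0.49 on 0.25% YE and -0.75 on 4% YE. It called 17 Obp mRNAs lower and 1 higher on 0.25% YE, where 57.7% of all probe sets tested were called in either direction, and 23 lower and 1 higher on 4% YE, where 61.9% were. All 10 calls on 0.25% YE and all 14 on 4% YE were among them. The one mRNA called higher on each diet was Obp83cd. The further mRNAs called lower on 0.25% YE were Obp19d, Obp28a, Obp56a, Obp56e, Obp83b, Obp99a and Obp99b. On 4% YE they were Obp19d, Obp28a, Obp44a, Obp49a, Obp56a, Obp56d, Obp56h, Obp99a and Obp99b.

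**Figure D3:**
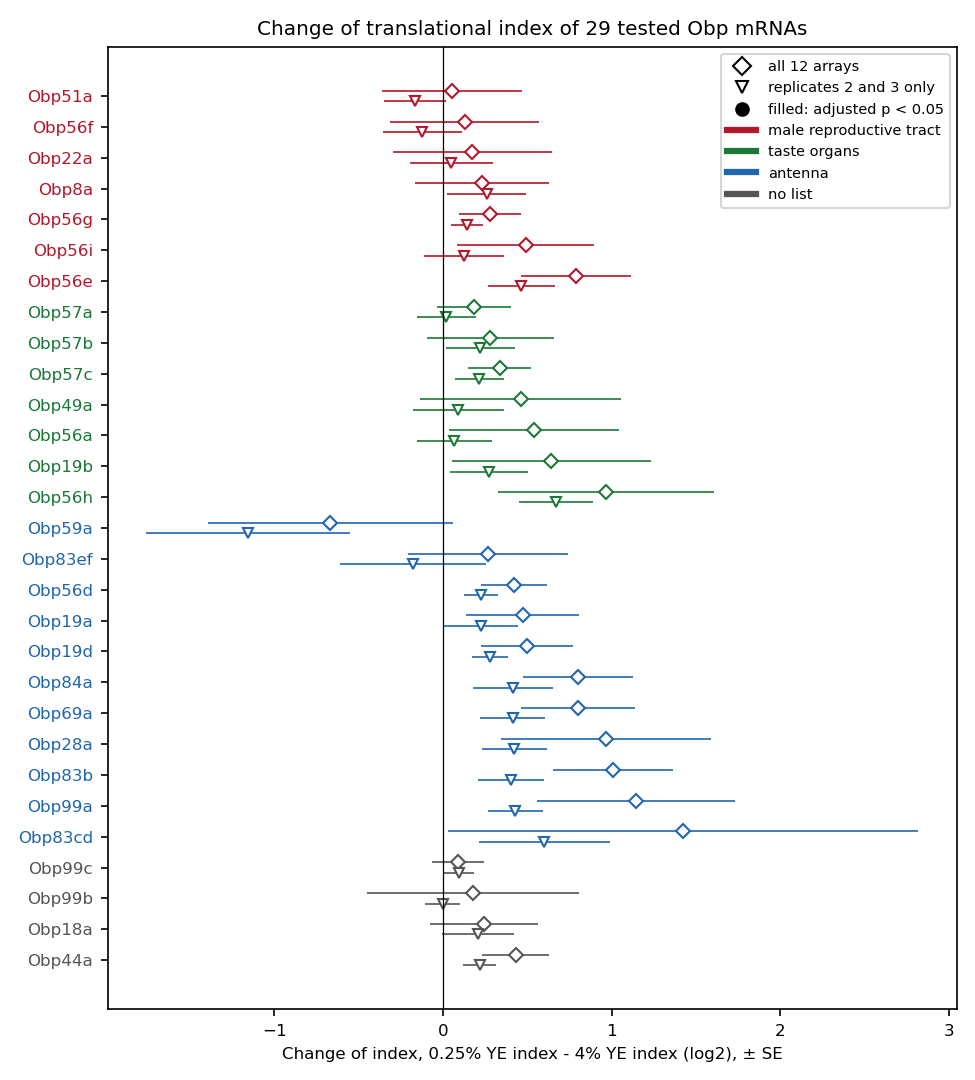
Change of the translational index of the 29 tested Obp mRNAs, as the index on 0.25% YE minus that on 4% YE (log2) with the SE of the linear model, from all 12 arrays (diamonds) and from replicates 2 and 3 only (triangles); colours mark the tissue group and no symbol is filled, since none had a limma adjusted p under 0.05. All but Obp59a lie right of 0 with 12 arrays, and most lie further left without replicate 1.

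The diet difference averaged over both fractions compares the 6 arrays of males on 0.25% YE with the 6 of males on 4% YE. The 6 arrays of a diet came from 3 gradients, each giving a high and a low fraction. The model treated both fractions of a gradient as independent, so its SE and p do not allow for what they share. By limma 0 of 29 Obp mRNAs were called, with 6 at an unadjusted p under 0.05, and 4.13% of all probe sets tested were called. The median difference was 0.04, as it was for all probe sets tested, and 17 of the 29 differences were positive. Without replicate 1 of the low fraction on 0.25% YE, 6 were called, 5 of them higher on 0.25% YE. The share of all probe sets called in that fit is not given here, so the count cannot be set beside it.

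Obp99b was the one tested Obp mRNA with all 6 arrays on 0.25% YE below all 6 on 4% YE, which held for 1.65% of all probe sets tested. It has been described in fat cells of the male head. In the high fraction it read 1985, 4419 and 4602 on 0.25% YE and 6463, 5973 and 5841 on 4% YE. In the low fraction it read 1320.1, 5084 and 5051 on 0.25% YE and 6162, 6814 and 6530 on 4% YE. Replicate 1 on 0.25% YE was far below replicates 2 and 3 in both fractions, whereas the 6 arrays on 4% YE lay close together.

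The averaged difference of Obp99b was -0.92 ± 0.31 (1.89-fold lower on 0.25% YE), with a limma adjusted p of 0.16. With the replicate number as a block it was called (adjusted p = 0.046). With replicates 2 and 3 alone the difference was -0.40 ± 0.05 (adjusted p = 0.00015), and with both replicate 1 arrays on 0.25% YE left out it was -0.40 ± 0.06 (adjusted p = 0.0018). Its direction thus held without replicate 1, at a smaller size and with a smaller SE. Of all probe sets tested, 2.69% had a lower difference than Obp99b. Of the 89 probe sets with a mean of at least 5000, 1, Obp99b itself, had a difference as low as -0.92. That mean is over all 12 arrays, and Obp99b had 5020. An mRNA as bright on 4% YE that fell further on 0.25% YE could thus be missing from the 89. Both ranks were taken with replicate 1 included. The rank of the smaller difference of -0.40 was not determined.

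By fraction, the diet difference of Obp99b was -0.83 ± 0.44 between high-fraction and -1.0 ± 0.44 between low-fraction arrays, neither of them called (limma adjusted p = 0.47 and 0.52). Its index was 0.08 ± 0.44 on 0.25% YE and -0.09 ± 0.44 on 4% YE, and that on 0.25% YE turned to -0.18 with replicates 2 and 3 alone. The index change was 0.18 ± 0.63 (adjusted p = 1).

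Fat body genes differed among themselves in their averaged diet difference. Of 6 tested, 2 were called lower on 0.25% YE. The storage protein gene Lsp2 had -6.49 ± 0.54 (limma adjusted p = 3.1e-05). The other was fit, a peptide gene of the fat body, at -3.42 ± 0.42 (adjusted p = 0.00058). Not called were 4, with apolpp, CG5107 and fat-spondin at -0.52 to -0.11 and Yp3 higher on 0.25% YE at 1.34 ± 0.61. Lsp2 averaged 112 on high-fraction arrays of 0.25% YE, against 6529 on those of 4% YE. On 0.25% YE the 6 summed to 11903 to 17506 on high-fraction and 8900 to 13194 on low-fraction arrays, against 23557 to 26947 on high-fraction and 20477 to 22045 on low-fraction arrays of 4% YE. Most of the fall in these sums came from Lsp2 and fit. On low-fraction arrays Lsp2 averaged 60.3 on 0.25% YE, against 4689 on 4% YE. For fit the means were 428 and 3743 on low-fraction and 278 and 2628 on high-fraction arrays. The part of the fat body genes in the Obp99b difference was not tested.

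In the high fraction, Obp83b was called higher on 0.25% YE than on 4% YE by 1.12 ± 0.25 (2.17-fold, limma adjusted p = 0.044), the one call among the 29, against 1.76% of all probe sets tested. All 3 arrays on 0.25% YE lay above all 3 on 4% YE, the lowest on 0.25% YE being 855 and the highest on 4% YE 555. The call was lost in 14 of 22 alternatives (adjusted p = 0.05 to 0.38), of which 10 left out 1 array, all but replicate 2 of the high and replicate 1 of the low fraction on 0.25% YE. With replicates 2 and 3 alone the difference was 0.85 ± 0.14 (adjusted p = 0.0014). In the low fraction its diet difference was 0.11 ± 0.25. Of the 29 differences in the high fraction 21 were positive, with 6 at an unadjusted p under 0.05. Their median was 0.22, against 0.02 for all and 0.08 for probe sets with a mean of at least 1000. Without replicate 1 of the low fraction on 0.25% YE, 4 were called, and the share of all probe sets is not given for that fit either.

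In the low fraction 23 of the 29 differences were negative. Their median was -0.17, against 0.03 for all and -0.01 for probe sets with a mean of at least 1000. By limma 0 were called, with 5 at an unadjusted p under 0.05, and 0.968% of all probe sets tested were called. Obp56e had the smallest p of the 29 there at -0.88 ± 0.23 (adjusted p = 0.12), followed by the taste organ member Obp56a at -1.04 ± 0.36 (adjusted p = 0.31).

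With replicates 2 and 3 alone, 10 Obp mRNAs were called higher on 0.25% YE over both fractions (Obp18a, Obp19b, Obp19d, Obp28a, Obp44a, Obp49a, Obp69a, Obp83b, Obp83ef and Obp99a), and 5 lower (Obp8a, Obp51a, Obp56a, Obp56e and Obp99b). That fit called 22.3% of all probe sets tested. Of the 10 called higher, 6 are antennal members, and 3 of the 5 called lower are seminal ones. Among the 29 tested Obp mRNAs, 11 are antennal and 7 are seminal. Whether the organs differ in these calls was not tested. The arrays of this fit were chosen after the values were seen, and with all 12 arrays 0 of the 29 were called. Obp8a differed by -0.60 ± 0.12 (limma adjusted p = 0.003) and Obp83b by 0.65 ± 0.10 (adjusted p = 5e-04). In the high fraction alone it called 10 higher and 2 lower, where 22.3% of all were called, and in the low fraction 1 higher (Obp49a) and 3 lower (Obp8a, Obp56e and Obp99b), where 7.95% were called.

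**Figure D4:**
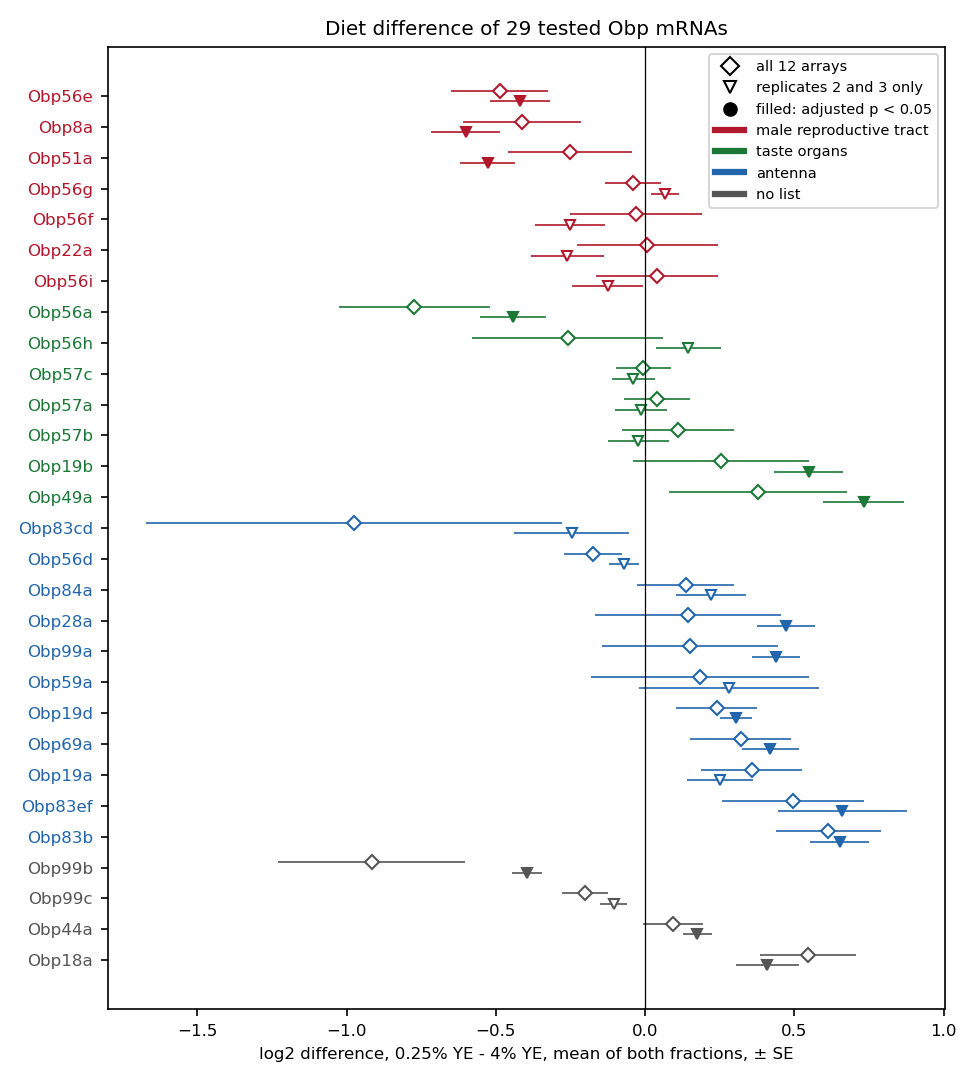
Diet difference of the 29 tested Obp mRNAs, as log2 on 0.25% YE minus log2 on 4% YE averaged over both fractions, with the SE of the linear model, from all 12 arrays (diamonds) and from replicates 2 and 3 only (triangles); filled symbols have a limma adjusted p under 0.05 and colours mark the tissue group. No diamond is filled, 15 triangles are, and Obp99b lies left of 0 in both.

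Companion genes of smell and taste were looked at in the same RNA. Of 26 listed, 16 had a probe set, EbpIII among them, and all 16 were above control on every array. On 0.25% YE 2 were called higher in the high fraction and 0 lower, and on 4% YE 2 higher and 2 lower. Jhedup, an esterase gene of the antenna, had an index of 1.59 ± 0.23 on 0.25% YE and 1.94 ± 0.23 on 4% YE (limma adjusted p = 0.0021 and 0.00026). Those called lower on 4% YE were a10, at -1.0 ± 0.21, and Phk-3, at -0.94 ± 0.24 (adjusted p = 0.0035 and 0.011), which both encode small secreted chemosensory proteins. The median index of the 16 was 0.62 on 0.25% YE and 0.10 on 4% YE.

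The product of lush, a pheromone-binding protein of the same family also known as Obp76a, is needed to sense the male pheromone cis-vaccenyl acetate. Its index was -0.04 ± 0.44 on 0.25% YE and -0.68 ± 0.44 on 4% YE, with no call (limma adjusted p = 0.96 and 0.25). The coreceptor gene Orco, which works in most olfactory neurons with a tuned receptor, was called higher in the high fraction on 0.25% YE at 1.04 ± 0.31 (adjusted p = 0.032) and had 0.69 ± 0.31 on 4% YE (adjusted p = 0.099). The tuned receptors themselves were mostly at the level of the control probe sets. Of 56 odorant receptor genes 41, of 56 gustatory receptor genes 37 and of 53 ionotropic receptor genes 44 exceeded control on 0 of 12 arrays, and 1 of each family was bright enough to test.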

How the data were processed

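Microarray intensities, 1 per probe set and array, were taken as deposited. They were linear and not on a common scale, with array medians of 39.3 to 95.6. The program that summarised the probes was not given in the sources used here, nor was any background subtraction. RNA came from whole w1118 males, by fraction and diet, per the labels' protocols. Of 18869 probe sets, 100 controls were left out. In the platform annotation 13647 others had 1 symbol, 402 several and 4720 none. No column of per-sample values was unused (0 columns).

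Intensities were quantile-normalized over 12 arrays, then values under 0 were set to 0, 1 was added and log2 taken. The 40% with the lowest mean (under 23.7) were left out, which left 11261. A linear model with 4 group means (8 residual degrees of freedom) was fitted by lmFit in limma 3.58.1 (R 4.3.3), and eBayes was run with trend switched on. It had no term for the gradient, which both fractions of an extract share. Every adjusted p is limma's, adjusted by Benjamini-Hochberg over all probe sets of a contrast. The procedure was tested on simulated data. All arrays entered each fit and none was imputed. The number of arrays, 3 per group, limits the precision.

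Every Obp gene is accounted for, and full statistics are given to those called in a contrast and to Obp99b. The members, organ groups and companion lists, written from general knowledge, were chosen with earlier results of these data known. Genes called neighbours are next to each other in the order of the supplied gene table, from RefSeq (the Release 6 assembly). No coordinates are given.

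Replicate numbers are those of the titles. The first replicate on 4% YE bears no number and was numbered by elimination. The numbers were taken to pair the arrays. Deviations from the group means correlated between arrays of the same number. The range was r = 0.166 to 0.669 in the 12 pairs that share a diet or a fraction, and 0.0731 to 0.669 over all 18. Arrays of different number are not compared here, so these values cannot show that the numbers pair the arrays. No 2 arrays were identical (0 pairs). Alternatives to normalization, offset, filter, spread, block, probe set choice and arrays used are given in the closing section.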

Additional observations from a re-analysis of the deposited data

How the results depend on the processing

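Of 25 Obp calls over the 6 contrasts, 5 held under all 22 alternatives, 20 were lost under at least 1 and 0 changed sign. On the values as deposited the count of Obp calls was 2 for the index on 0.25% YE, 4 for the index on 4% YE and 0 for the high-fraction diet difference, which was 0 also with median centring, without the filter on dim probe sets and without the intensity trend. Of the 14 calls on 4% YE, 8 were lost on the values as deposited and under no other alternative. With the number as a replicate block the averaged diet difference had 1 call (Obp99b) against 0, the index on 0.25% YE 11 (Obp83cd added) and that on 4% YE 15 (Obp28a added), and the block changed no other Obp call. Leaving out 1 array gave 4 to 11 calls for the index on 0.25% YE, 12 to 19 on 4% YE, 0 to 6 for the averaged diet difference, 0 to 4 in the high fraction, and 0 in each fit for the low fraction and for the index change. With replicates 2 and 3 only, the counts were 18 for the index on 0.25% YE, 24 on 4% YE, 15 for the averaged diet difference, 12 for the high-fraction and 4 for the low-fraction diet difference. With both replicate 1 arrays on 0.25% YE left out, they were 11, 7 and 1 for the averaged diet difference, the high and the low fraction, the last being Obp99b at an adjusted p that rounds to 0.05. The index of Obp99b on 0.25% YE turned negative without replicate 2 of the high fraction on that diet (-0.10), its replicate 3 (-0.13) or replicate 1 of the low fraction (-0.55), with replicates 2 and 3 only (-0.18) and without both replicate 1 arrays on 0.25% YE (-0.18). Its index change did so in the same 5 fits, at -0.0065, -0.033, -0.46, -0.0019 and -0.081. Over all fits that left out 1 array, the index ranged from -0.55 to 0.49 and its change from -0.46 to 0.58. Why these values moved was not tested, except that fits without arrays have fewer samples. The shares of all probe sets called are not given for these fits, apart from replicates 2 and 3 only. Signals close to the control probe sets limit what can be said of Obp59a, Obp83cd, Obp83ef and the 18 untested genes.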
